A study of Homo sapiens with 16 samples.

Results

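The genes described here encode 9 surface proteins that are drug targets, or partners of drug targets, in multiple myeloma: CD38, SDC1, TNFRSF17, GPRC5D, TNFRSF13B, CD27, CD28, CD47 and NCSTN. They were taken by gene symbol, and all 9 were found among the 35606 genes of the deposited expression table. CD38, SDC1, TNFRSF17 and GPRC5D are reached at the plasma cell surface by antibodies, bispecific antibodies or CAR T cells. TNFRSF13B and CD27 are B lineage receptors of the tumour necrosis factor receptor family, CD28 is a costimulatory receptor that myeloma cells can carry, CD47 restrains phagocytosis, and NCSTN is a subunit of the protease that sheds TNFRSF17 from the cell.

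RNA was sequenced from 4 human cell lines, with 2 libraries per line and arm and 16 in all. Multiple myeloma was represented by NCI-H929 and by MM1.S. The lines NCI-H526 and NCI-H1048 came from small cell lung cancer that depends on the tuft cell factor POU2F3 (SCLC-P). Each line received either DMSO or 1 uM of AU-15330, a PROTAC degrader that removes SMARCA2, SMARCA4 and PBRM1, the ATPases and an accessory subunit of the mSWI/SNF chromatin remodelling complex. The sample titles give 24 h of treatment, but the other descriptions in the record give shorter or wider ranges, so the exposure time is uncertain. Each line stands for 1 established culture, and the labels name no genetic change in any group. MM1.S libraries were prepared by depletion of ribosomal RNA and those of the other lines by selection of poly(A) RNA, so levels were not tested between lines.

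Plasma cells are the antibody-secreting end stage of the B lineage. On entering that stage they gain SDC1 and TNFRSF17 and lose most mature B cell surface proteins, and myeloma, the cancer of these cells, keeps most of this surface. TNFRSF17 (BCMA) and TNFRSF13B (TACI) bind the survival ligands BAFF and APRIL, and gamma-secretase, which contains NCSTN, cuts TNFRSF17 directly at the membrane.

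Values below are the deposited expression values, which the authors had scaled by library and which are called scaled values. Their totals per library ran from 0.829 to 1.19 M, and the smallest step between low values gave estimated depths of 12.0 to 14.0 M reads in NCI-H929, 16.8 to 32.4 M in MM1.S, 31.5 to 43.0 M in NCI-H526 and 33.3 to 39.2 M in NCI-H1048. A count of 3 reads, taken as the floor, corresponded to 0.0728 to 0.293 scaled units. Plasma cell markers summed to 21233 to 21668 scaled units in NCI-H929 under DMSO, those of MM1.S to 7997 to 8422, and those of the lung lines to 76.6 to 98.6. Epithelial and tuft cell markers summed to 15.8 to 18.9 in the myeloma lines and 979 to 3474 in the lung lines under DMSO. Both checks followed the labels. Among mature B cell markers, MS4A1 and PAX5 stayed under 1 scaled unit in every myeloma library, while CD79B reached 46.4 in NCI-H929 and CR2 reached 35.8 in MM1.S under DMSO. The sums of myeloid cell markers were 9.43 to 15.9 in the myeloma lines under DMSO and 3.13 to 15.6 after AU-15330.

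The sequence around the start of 6 of the genes is shown because CD38, SDC1, CD28 and GPRC5D fell in both myeloma lines, whereas CD47 and NCSTN did not. SDC1 has 2 windows. The windows are those of RefSeq on GRCh38.p14, 300 bases in the direction of the gene from 250 before to 50 after its start, and the table held windows for 8 of the 9 genes (all but TNFRSF17). Capitals mark matches, on either strand, to 4 motifs: the octamer ATGCAAAT bound by POU2F factors, the interferon response core GAAANNGAAA, the ETS-IRF composite GGAANNGAAA and the GC box GGGCGG. The 2 purine motifs can overlap by shared GAAA letters, and neighbouring GC boxes can overlap each other.
CD38 chr4:15778078-15778377 (+ strand): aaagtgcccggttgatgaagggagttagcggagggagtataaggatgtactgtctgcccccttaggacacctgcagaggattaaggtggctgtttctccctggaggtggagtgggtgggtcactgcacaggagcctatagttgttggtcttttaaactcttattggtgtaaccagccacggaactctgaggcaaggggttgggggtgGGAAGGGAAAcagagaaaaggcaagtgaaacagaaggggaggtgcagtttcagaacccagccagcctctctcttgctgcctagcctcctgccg
SDC1 window 1 chr2:20225426-20225725 (- strand): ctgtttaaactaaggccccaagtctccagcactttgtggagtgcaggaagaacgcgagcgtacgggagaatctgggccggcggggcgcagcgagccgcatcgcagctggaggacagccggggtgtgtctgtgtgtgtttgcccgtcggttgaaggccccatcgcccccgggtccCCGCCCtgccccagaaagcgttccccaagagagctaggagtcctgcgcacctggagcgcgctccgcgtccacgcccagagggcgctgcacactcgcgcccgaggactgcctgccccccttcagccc
SDC1 window 2 chr2:20225081-20225380 (- strand): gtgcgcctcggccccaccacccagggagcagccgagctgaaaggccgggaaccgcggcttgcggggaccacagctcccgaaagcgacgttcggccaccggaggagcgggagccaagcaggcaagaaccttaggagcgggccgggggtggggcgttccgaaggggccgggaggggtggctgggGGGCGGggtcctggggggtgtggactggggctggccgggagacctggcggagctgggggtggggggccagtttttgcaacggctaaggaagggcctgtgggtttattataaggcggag
CD28 chr2:203706389-203706688 (+ strand): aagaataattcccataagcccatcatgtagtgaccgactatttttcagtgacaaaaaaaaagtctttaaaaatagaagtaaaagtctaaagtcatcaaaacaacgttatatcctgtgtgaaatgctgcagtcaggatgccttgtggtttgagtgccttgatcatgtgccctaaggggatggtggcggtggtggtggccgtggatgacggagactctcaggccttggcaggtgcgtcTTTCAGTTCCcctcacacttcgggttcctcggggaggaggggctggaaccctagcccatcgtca
GPRC5D chr12:12952121-12952420 (- strand): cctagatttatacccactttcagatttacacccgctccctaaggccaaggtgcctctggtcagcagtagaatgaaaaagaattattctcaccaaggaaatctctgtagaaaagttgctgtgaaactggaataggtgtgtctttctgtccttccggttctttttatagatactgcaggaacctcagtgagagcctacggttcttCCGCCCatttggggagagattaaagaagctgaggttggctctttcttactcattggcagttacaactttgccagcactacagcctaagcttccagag
CD47 chr3:108090982-108091281 (- strand): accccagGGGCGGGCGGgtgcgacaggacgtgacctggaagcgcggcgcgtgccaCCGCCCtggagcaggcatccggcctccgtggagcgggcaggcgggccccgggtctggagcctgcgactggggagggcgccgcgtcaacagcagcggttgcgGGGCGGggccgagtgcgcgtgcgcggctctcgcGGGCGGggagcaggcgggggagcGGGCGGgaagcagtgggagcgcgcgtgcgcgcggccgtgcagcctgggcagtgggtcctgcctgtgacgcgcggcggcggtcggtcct
NCSTN chr1:160343133-160343432 (+ strand): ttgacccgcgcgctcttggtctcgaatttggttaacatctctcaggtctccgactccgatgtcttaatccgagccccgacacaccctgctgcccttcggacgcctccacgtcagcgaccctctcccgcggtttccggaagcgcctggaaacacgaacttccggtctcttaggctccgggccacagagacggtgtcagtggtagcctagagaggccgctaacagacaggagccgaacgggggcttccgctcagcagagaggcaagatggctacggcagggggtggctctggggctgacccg
The windows of CD38 and CD28 each held 1 ETS-IRF composite, a match found in 2.82% of 35116 RefSeq windows of the same length. It began 43 and 14 bases before the RefSeq start. In both genes that start lies inside the gene coordinates given below, and so does the match. No window of the 8 genes held the octamer, present in 1.77% of all windows, or the interferon response core, present in 3.57%. CD47 held 6 GC boxes, and SDC1 (in each of its 2 windows), GPRC5D and TNFRSF13B held 1, against 45% of all windows with any. By number of CpG pairs the windows divided into poor ones, with 3 in CD27, 4 in CD38, 4 in GPRC5D, 5 in TNFRSF13B and 9 in CD28, and rich ones, with 23 and 27 in SDC1, 26 in NCSTN and 45 in CD47, beside a median of 14 over all windows. These are descriptions of letters in a window, not of factor binding.

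Treatment with AU-15330 lowered most of the myeloma antigens that were measurable. In NCI-H929, 7 of the 9 genes passed the filter (a mean of at least 1 scaled unit over the line), and 5 of them, CD38, SDC1, TNFRSF17, GPRC5D and CD28, fell at an adjusted p under 0.05 in limma. Over all 13115 genes tested in that line 37.6% were called lower, so the call by itself separates little. All 5 fell by at least 2-fold, beside 12.8% of all genes. The other 2, CD47 and NCSTN, rose, beside 38.4% of all genes. In MM1.S, 8 passed the filter, of which 7 fell (40.2% of 13838 genes did) and NCSTN rose (33.9% of genes did). Of these, 4 fell by at least 2-fold, namely CD38, SDC1, GPRC5D and TNFRSF13B, beside 14.3% of all genes. The genes that passed had a median log2 difference of -1.63 in NCI-H929 and one of -0.91 in MM1.S, where the medians of all tested genes were 0.036 and -0.031. The members were chosen with earlier results of these data known, so the shares and medians are descriptions and not a test of the set. In these bulk samples, fewer cells that carry an antigen and less RNA per cell cannot be told apart. The labels do not say that the 2 libraries of a group came from separate cultures, so the p-values measure the spread between libraries, which may be technical.

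**Figure D1:**
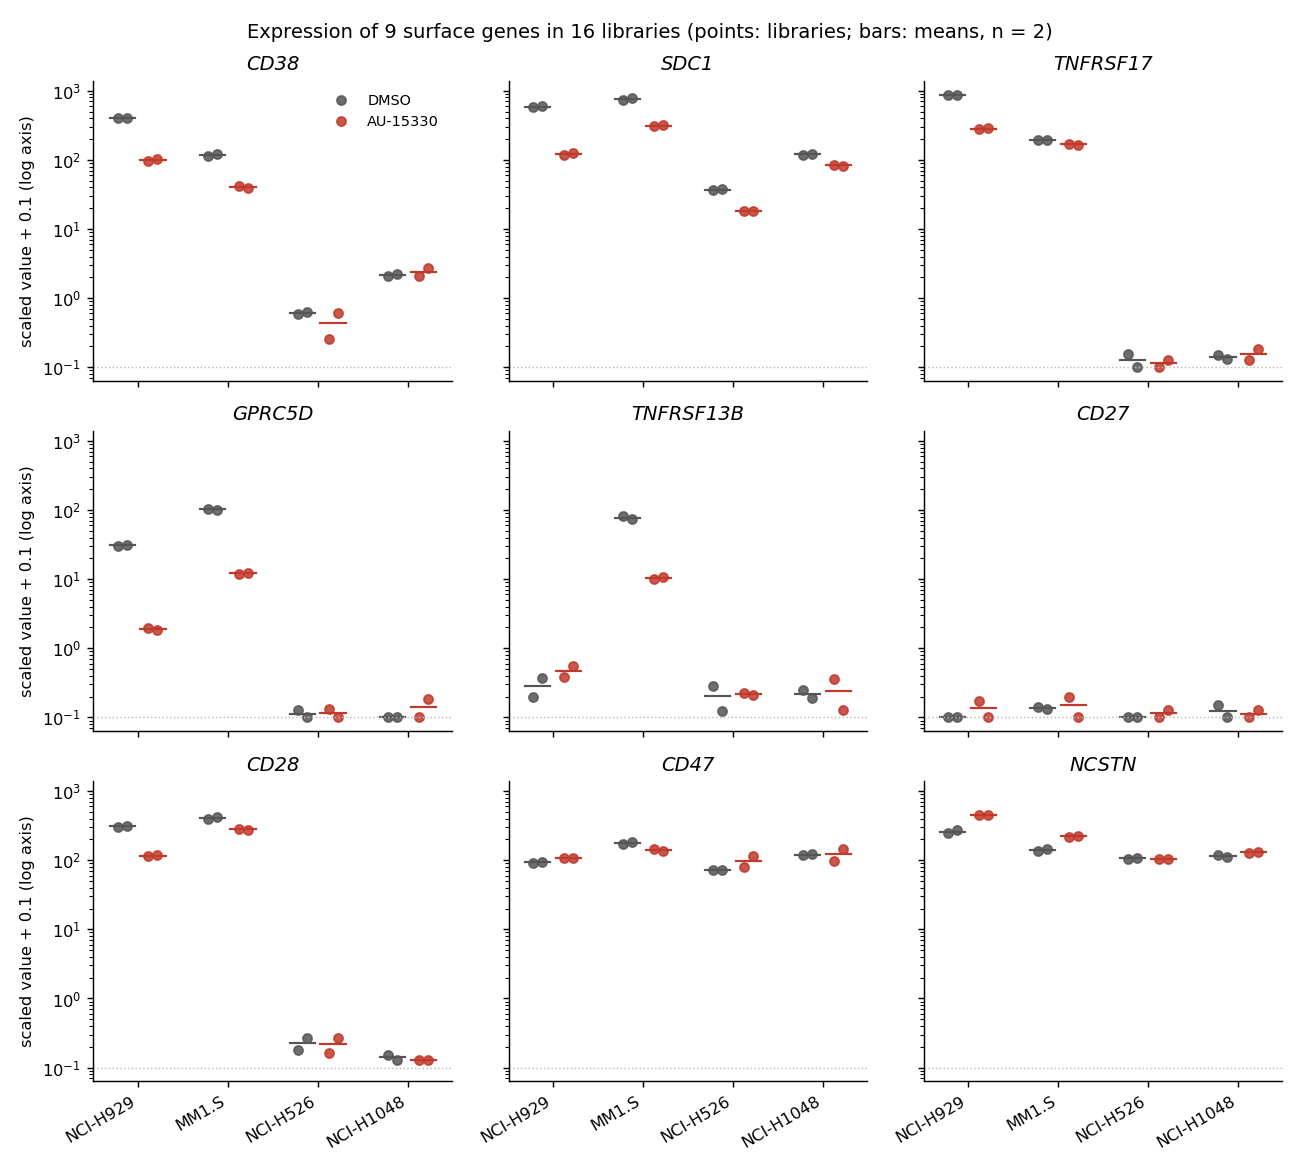
Scaled value plus 0.1 (log axis) of each gene in the 16 libraries, by cell line, with DMSO in grey and AU-15330 in red. Points are libraries, bars are means of 2, and the dotted line marks a value of 0. The AU-15330 points of CD38, SDC1, GPRC5D and CD28 lie below the DMSO points in both myeloma lines, while CD27 sits at the dotted line throughout, reaching at most 0.0988.

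CD38, an ectoenzyme that cleaves NAD and the target of daratumumab (GRCh38, chr4:15778275-15853232, plus strand), fell in both lines. In NCI-H929 its scaled value was 405 and 397 in the DMSO libraries and 97.7 and 103 in the AU-15330 libraries. In MM1.S it was 112 and 120.0 under DMSO and 41.5 and 38.8 after AU-15330. The arms did not overlap in either line. The mean went from 401 ± 5.59 (SD, n = 2) to 100.1 ± 3.42 in NCI-H929, a log2 difference of -2.0 ± 0.043 (SE, adjusted p = 7.11e-14), and 2.47% of tested genes had a lower one. In MM1.S the log2 difference was -1.52 ± 0.067 (adjusted p = 7.79e-09).

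SDC1 (CD138), the heparan sulfate proteoglycan used to identify plasma cells (chr2:20200797-20225433, minus strand), fell in all 4 lines. In NCI-H929 the libraries read 585 and 597 under DMSO and 119 and 124 after AU-15330. In MM1.S they read 744 and 776 under DMSO and 307 and 316 after AU-15330. SDC1 was left at 20.6% of its DMSO mean in NCI-H929 and at 41.0% in MM1.S, with no overlap of arms. The log2 differences were -2.27 ± 0.040 in NCI-H929 (adjusted p = 1.23e-14) and -1.28 ± 0.051 in MM1.S (adjusted p = 3.85e-09).

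TNFRSF17, the gene of the BCMA receptor (chr16:11965210-11968068, plus strand), separated the myeloma lines. In NCI-H929 it read 868 and 877 under DMSO and 276 and 286 after AU-15330, a log2 difference of -1.63 ± 0.036 (adjusted p = 9.22e-14). In MM1.S it read 191 and 194 under DMSO and 169 and 165 after AU-15330, a log2 difference of -0.20 ± 0.052 (adjusted p = 0.00465). The arms did not overlap in either line, yet the MM1.S change was 1.15-fold, and 41.5% of the genes tested there had a lower difference. That small change turned to 0.03 when libraries were scaled to equal totals and to -0.01 under quantile normalization, with neither called, so its direction in MM1.S rests on the scaling. NPIPB2, which overlaps TNFRSF17 on the opposite strand, read 10.1 to 10.3 under DMSO and 8.97 to 11.0 after AU-15330 in NCI-H929, and went from 15.5 and 19.6 to 12.8 and 10.7 in MM1.S (log2 difference -0.55, adjusted p = 0.00262). The strand setting of the counting is not given in the sources used here, and the part of such overlaps was not tested.

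GPRC5D, an orphan receptor of the plasma cell surface and the target of talquetamab (chr12:12940575-12952170, minus strand), was left with the smallest share of its DMSO level among the tested members in both lines. It went from 30.2 and 31.3 to 1.86 and 1.73 in NCI-H929. In MM1.S it went from 103 and 101 to 11.7 and 12.3. Arms did not overlap, and 5.84% and 11.8% of the DMSO means were left. The log2 differences were -3.77 ± 0.16 in NCI-H929 (adjusted p = 4.71e-11), lower than all but 26 of the tested genes, and -3.03 ± 0.072 in MM1.S (adjusted p = 2.01e-10), lower than all but 102. GPRC5D-AS1 overlaps the gene on the other strand and was not analysed here.

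TNFRSF13B, the TACI receptor (chr17:16929816-16972118, minus strand), passed the filter in MM1.S alone among the 4 lines. There it read 80.9 and 73.8 under DMSO and 10.1 and 10.5 after AU-15330, a log2 difference of -2.85 ± 0.081 (adjusted p = 4.62e-10), and 0.961% of tested genes had a lower one. In NCI-H929 its 4 libraries lay between 0.0976 and 0.451, with 2 of them at or under 3 reads, and it was not tested. TBC1D27P, a pseudogene that overlaps TNFRSF13B on the same strand, moved with it in MM1.S, from 91.9 and 77.1 to 14.6 and 16.7 (log2 difference -2.39, adjusted p = 4.62e-09). How reads were divided between the overlapping genes was not tested.

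CD27, the receptor for CD70 that marks memory B cells and normal plasma cells (chr12:6444955-6451718, plus strand), was near 0 everywhere. It was listed at 0 in 9 of 16 libraries and was at or under 3 reads in all 16, with a highest value of 0.0988 in MM1.S. No effect of AU-15330 on it was detectable at this depth. TAPBPL, which overlaps it on the same strand, read 31.4 to 33.0 in MM1.S under DMSO.

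CD28, a T cell costimulatory receptor also found on myeloma cells (chr2:203706475-203738912, plus strand), fell in both lines but by different amounts. NCI-H929 libraries read 303 and 313 under DMSO and 113 and 117 after AU-15330, a log2 difference of -1.42 ± 0.043 (adjusted p = 1.76e-12). MM1.S libraries read 398 and 419.8 under DMSO and 285 and 276 after AU-15330, a log2 difference of -0.54 ± 0.053 (adjusted p = 3.55e-06). The arms did not overlap in either line, and 6.71% of tested genes in NCI-H929 but 27.2% in MM1.S had a lower difference. Among 7 T and NK cell markers, CD3D read 0 in all myeloma libraries and CD2 at most 0.123, and 1 was tested in NCI-H929 and 2 in MM1.S, where neither was called. The one in NCI-H929, CD3E, fell, reading 42.4 and 41.5 under DMSO and 4.51 and 5.56 after AU-15330 in NCI-H929, and it carried most of that list's sum, which was 44 to 44.9 under DMSO and 6.44 to 7.38 after AU-15330. The same sum was 4.56 to 4.6 under DMSO and 3.45 to 4.83 after AU-15330 in MM1.S. The part of other cells in the CD28 values was not tested.

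CD47, the "do not eat me" signal that binds SIRPA on macrophages (chr3:108043091-108091862, minus strand), changed little and in opposite directions. In NCI-H929 it read 91.2 and 94.5 under DMSO and 108 and 108 after AU-15330, a log2 difference of 0.21 ± 0.050 (adjusted p = 0.00137). In MM1.S it read 172 and 181 under DMSO and 147 and 138 after AU-15330, a log2 difference of -0.31 ± 0.058 (adjusted p = 0.000554). Each arm stood clear of the other, but 58.5% and 36.5% of tested genes had a lower difference, near the middle of all genes. The MM1.S call was lost with equal totals, where the difference was -0.08, and with quantile normalization, where it was -0.13. In a single fit of all 16 libraries neither call was kept, with adjusted p = 0.229 in NCI-H929 and 0.089 in MM1.S.

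NCSTN, which encodes nicastrin, the substrate-binding subunit of gamma-secretase (chr1:160343294-160358952, plus strand), rose in both myeloma lines. NCI-H929 libraries read 249 and 269 under DMSO and 456 and 443 after AU-15330. MM1.S libraries read 137 and 147 under DMSO and 216 and 224 after AU-15330. All AU-15330 libraries lay above all DMSO libraries. The log2 differences were 0.79 ± 0.043 in NCI-H929 (adjusted p = 6.75e-10) and 0.63 ± 0.057 in MM1.S (adjusted p = 1.86e-06), and 20.0% and 18.4% of tested genes had a higher one. COPA, which overlaps NCSTN on the opposite strand, moved the other way, from 824 and 845 to 678 and 679 in NCI-H929 and from 290.4 and 297 to 221 and 227 in MM1.S.

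**Figure D2:**
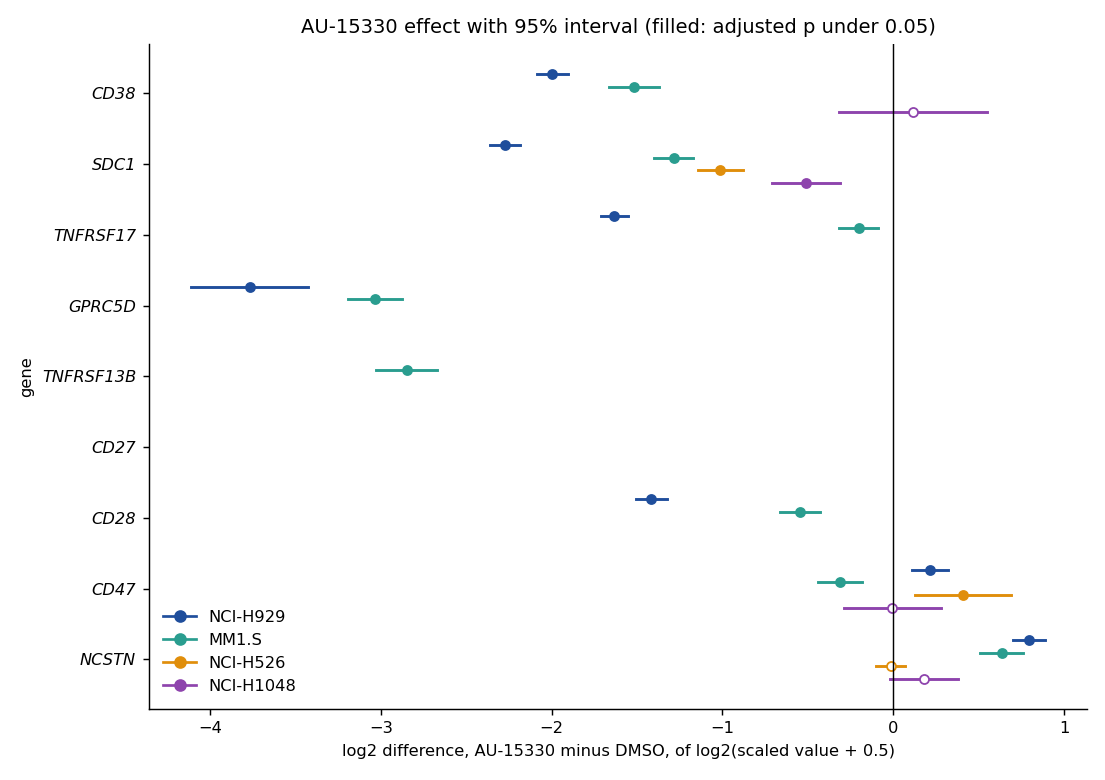
Log2 difference (AU-15330 minus DMSO, of log2 of the scaled value plus 0.5) of each gene in the lines where it was tested, with the 95% interval of the limma fit. Filled points had an adjusted p under 0.05. GPRC5D lies farthest left, at -3.77 in NCI-H929 and -3.03 in MM1.S, SDC1 is left of 0 in all 4 lines, and NCSTN is right of 0 only in the myeloma lines among filled points.

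Length-adjusted levels give an order of the RNA of these genes in each line before and after treatment, and measure no surface protein. Scaled values were divided by the length of the canonical transcript in kb, and the order is a description. Which transcripts the lines express was not tested, so the order rests on those lengths. Under DMSO, TNFRSF17 led in NCI-H929 with 974 to 984 scaled units per kb, followed by SDC1 with 185 to 189, NCSTN with 88.3 to 95.3, CD38 with 70.6 to 72.0, CD28 with 64.2 to 66.3, GPRC5D with 22.4 to 23.3 and CD47 with 17.2 to 17.9. TNFRSF13B, at 0.0702 to 0.193, and CD27, at 0, came last. No neighbours in that order overlapped between their 2 libraries. After AU-15330 TNFRSF17 still led, with 309 to 321 scaled units per kb, but NCSTN came next with 157 to 162, ahead of SDC1 with 37.7 to 39.3. GPRC5D dropped to 1.28 to 1.38 scaled units per kb, below CD38 (17.4 to 18.2) and CD47 (20.3 to 20.4).

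The MM1.S order was different. SDC1, at 235 to 245 scaled units per kb, and TNFRSF17, at 214 to 218, stood first under DMSO, followed by CD28 (84.4 to 88.9), GPRC5D (75.3 to 76.3), TNFRSF13B (53.0 to 58.1), NCSTN (48.6 to 52.0), CD47 (32.6 to 34.3), CD38 (19.9 to 21.3) and CD27 (0.0248 to 0.0345). No neighbours overlapped here either. After AU-15330 TNFRSF17 led with 186 to 190 scaled units per kb, SDC1 followed with 97.1 to 99.8, and NCSTN came next with 76.7 to 79.5. GPRC5D, with 8.70 to 9.17, TNFRSF13B, with 7.25 to 7.55, and CD38, with 6.91 to 7.38, formed the low end above CD27, and the libraries of TNFRSF13B and CD38 overlapped.

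**Figure D3:**
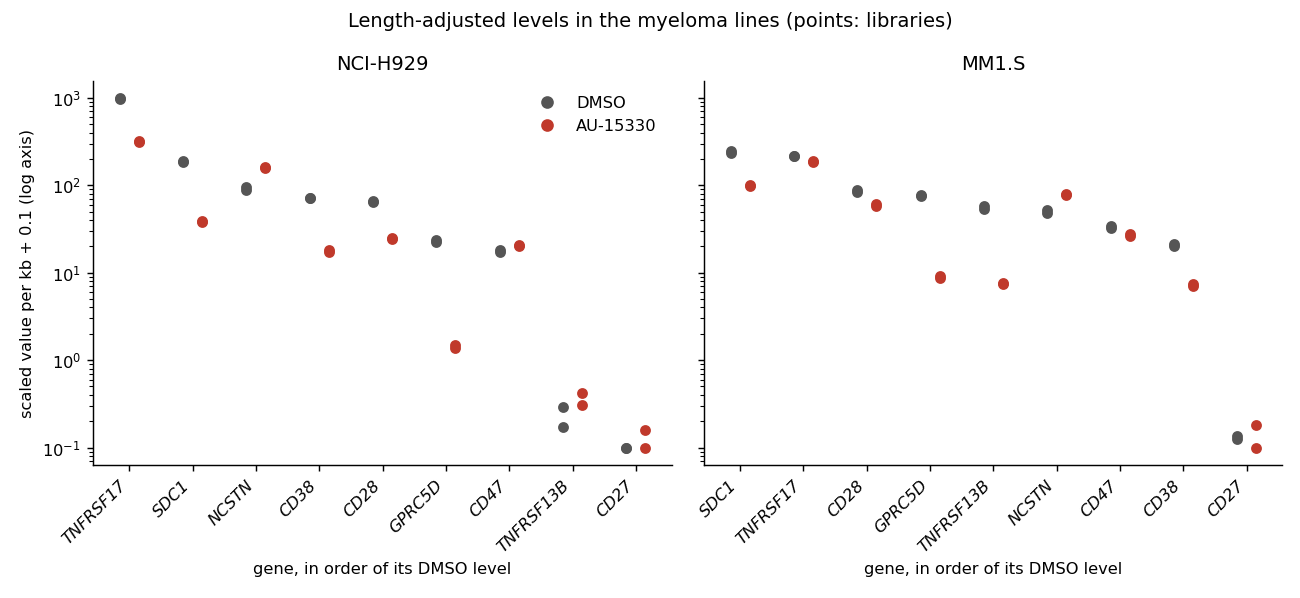
Scaled value per kb of canonical transcript plus 0.1 (log axis) in the myeloma lines, genes in order of their DMSO level, with DMSO in grey and AU-15330 in red and each point a library. TNFRSF17 and NCSTN hold the first and second places after AU-15330 in NCI-H929, at 309 to 321 and 157 to 162 scaled units per kb.

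Whether the response differed between the myeloma lines was tested as the difference of the 2 effects in one limma fit of their 8 libraries. RNA selection differed between the lines (poly(A) in NCI-H929, ribosomal depletion in MM1.S), so a difference between the lines and one between the preparations cannot be told apart. The difference passed the threshold for 6 of the 7 genes tested in both, where 48.3% of 12138 genes did. TNFRSF17 differed most, by a log2 of -1.43 (95% interval -1.56 to -1.30, adjusted p = 1.81e-08), with the larger fall in NCI-H929. SDC1 (-0.99, adjusted p = 3.57e-07), CD28 (-0.87, adjusted p = 1.33e-06), GPRC5D (-0.73, adjusted p = 0.000767) and CD38 (-0.48, adjusted p = 0.000516) also fell further in NCI-H929. CD47 differed by 0.53 (adjusted p = 0.000149), rising in one line and falling in the other. For NCSTN the difference was 0.16 with a 95% interval of -0.0025 to 0.32 (adjusted p = 0.0962), so a somewhat larger rise in NCI-H929 was neither called nor excluded. The 6 differences kept their direction and call under every alternative tried for them, including equal totals and quantile normalization, which were added after the data had been seen.

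**Figure D4:**
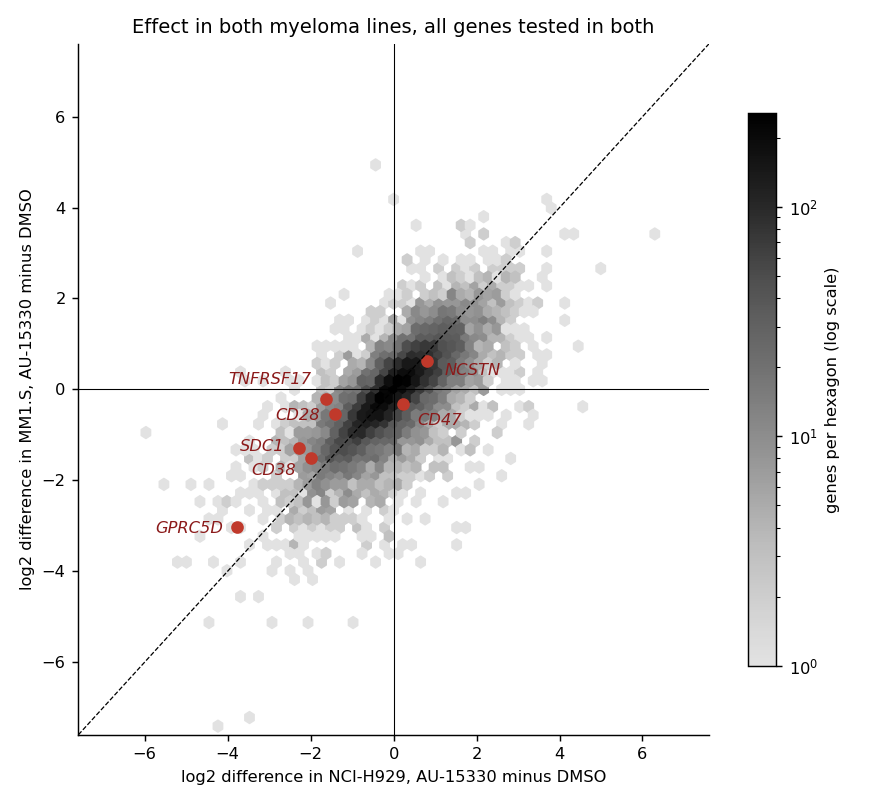
Log2 difference in NCI-H929 (x axis) against MM1.S (y axis) for the 12138 genes tested in both, shaded by the number of genes per hexagon on a log scale, with the 7 genes tested in both in red and the dashed line marking equal effects. SDC1, CD38, CD28, TNFRSF17 and GPRC5D lie above the dashed line, that is with the larger fall in NCI-H929.

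The genes nearest to each member over the 8 myeloma libraries, by Euclidean distance of log2 values after subtracting each line's DMSO mean, were taken from 8670 genes with a mean of at least 10 in both lines. For CD38 they were ARPC5L, SELENOI and ARHGDIB, at distances of 0.15 to 0.17. For SDC1 they were PBK, GINS3 and HERPUD1, and for TNFRSF17 they were KIF2C, CDC20 and MASTL, of which KIF2C had log2 differences of -1.62 and -0.15 in NCI-H929 and MM1.S. CD28 was nearest to STMN1, CKS1B and GNG7, CD47 to NNT, GPRIN3 and DCAKD, and NCSTN to GTF2A1, PCGF3 and ZBTB1, at 0.095 to 0.10 for NCSTN. GPRC5D had no close neighbour: ITGAL, CCR1 and CDC25A were the nearest, at 0.75 to 0.82, and 1 of these 3 was kept with a pseudocount of 1. These distances describe 8 libraries and follow mainly the sizes of both effects.

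In the lung lines most of these antigens were not measurable. TNFRSF17, GPRC5D and CD27 were at or under 3 reads in all 8 lung libraries, with highest values of 0.0822, 0.0822 and 0.0500 scaled units. CD28 was at or under 3 reads in 6 of the 8, and TNFRSF13B in 3 of the 8 with a highest value of 0.255. CD38 read 0.157 to 0.534 in NCI-H526, under the filter. In NCI-H1048 it read 1.98 and 2.14 under DMSO and 1.96 and 2.63 after AU-15330, overlapping arms with a log2 difference of 0.12 (95% interval -0.32 to 0.55, adjusted p = 0.693).

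SDC1 was the antigen that fell there too. It went from 36.4 and 37.3 to 17.8 and 18.3 in NCI-H526, a log2 difference of -1.01 ± 0.059 (adjusted p = 3.26e-07). In NCI-H1048 it went from 118 and 121 to 85.5 and 81.9, a log2 difference of -0.51 ± 0.095 (adjusted p = 0.000338). Arms did not overlap in either line. SDC1 was thus 1 of 3 tested members called lower in NCI-H526, where 29.8% of 13685 genes were, and 1 of 4 in NCI-H1048, where 18.2% of 13691 genes were.

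CD47 was called higher in NCI-H526, where 29.0% of genes were, and no member was called higher in NCI-H1048, where 16.9% of genes were. The CD47 libraries of NCI-H526 read 71.6 and 71.6 under DMSO and 79.0 and 115 after AU-15330, with arms that did not overlap and a log2 difference of 0.41 ± 0.13 (adjusted p = 0.0185) that was no longer called with no filter, in one fit of all libraries or without the variance trend. That difference was 0.14 without the AU-15330 library that read 115 and 0.68 without the one that read 79.0, and was called in both cases. In NCI-H1048 CD47 read 118 and 121 under DMSO and 96.3 and 147 after AU-15330, so the AU-15330 libraries lay on either side of the DMSO libraries, with a log2 difference of -0.01 (95% interval -0.29 to 0.28). The NCI-H1048 difference became 0.30 without the AU-15330 library that read 96.3, and -0.31 without the one that read 147, and was called in both cases. The AU-15330 libraries of NCI-H1048 differed more than any other pair, with a chi-square per degree of freedom of 18.3 over estimated counts against 2.13 to 7.44 elsewhere.

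NCSTN did not pass the test in the lung lines. It read 105 and 106 under DMSO and 105 and 104 after AU-15330 in NCI-H526, a log2 difference of -0.02 (95% interval -0.10 to 0.07). NCI-H1048 read 117 and 112 under DMSO and 128 and 132 after AU-15330, a log2 difference of 0.18 (95% interval -0.02 to 0.38, adjusted p = 0.149), which was called in one fit of all libraries (adjusted p = 0.0153).

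The mean effect in the myeloma lines was set against that in the lung lines for the 3 members tested in all 4, in one fit of 16 libraries. SDC1 fell further in myeloma by a log2 of -1.02 (95% interval -1.13 to -0.91, adjusted p = 4.81e-11), and NCSTN differed by 0.63 (95% interval 0.51 to 0.75, adjusted p = 3.35e-08), being higher in myeloma. For CD47 the difference was -0.25 (95% interval -0.58 to 0.08, adjusted p = 0.154). Of 11059 genes tested in all lines 76.1% differed, so a call here is common. MM1.S alone was prepared by ribosomal RNA depletion, and line, tissue of origin and the preparation cannot be fully told apart in this contrast.

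Genes that work with the members were followed as lists. The lists too were chosen with earlier results of these data known. Of all tested genes, 38.4% were called higher and 37.6% lower in NCI-H929, and 33.9% and 40.2% in MM1.S. These shares stand beside the counts of each list below. Of the 10 ligands and partners, 5 passed the filter in NCI-H929, with 2 higher and 2 lower, and 8 in MM1.S, with 2 higher and 5 lower. PECAM1 (CD31), a ligand of CD38, fell from 147 and 149 to 6.67 and 8.19 in NCI-H929, a log2 difference of -4.23 (adjusted p = 9.46e-14). SIRPA, the receptor for CD47, fell in MM1.S from 24.8 and 26.0 to 6.42 and 6.84 (log2 difference -1.86), TNFSF13, the APRIL ligand of TNFRSF17 and TNFRSF13B, fell from a mean of 8.13 to 1.84, and CD86, a ligand of CD28, from 22.4 to 9.31. CD70, the CD27 ligand, fell in MM1.S from 12.1 and 13.1 to 5.34 and 5.62, a log2 difference of -1.13 (adjusted p = 4.82e-06). In NCI-H929 it was called higher after AU-15330, from a mean of 0.646 to 2.05, a log2 difference of 1.16 (adjusted p = 0.00407) that was no longer called under quantile normalization (0.70, adjusted p = 0.0642). The effects on CD70 differed between the lines by a log2 of 2.30 (adjusted p = 4.31e-05). TNFRSF13C, the BAFF receptor, was also called higher in NCI-H929, from 0.548 to 1.64 (adjusted p = 0.0167). That call was lost with no filter (adjusted p = 0.0525) and under quantile normalization (log2 difference 0.56, adjusted p = 0.202). The TNFRSF13C log2 difference was 1.055 with all libraries, 0.70 without DMSO replicate 1 and 0.81 without AU-15330 replicate 1. In NCI-H929, CD70 and TNFRSF13C passed the filter only through their AU-15330 libraries, with DMSO means under 1 scaled unit.

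Among 7 gamma-secretase subunits and shedding proteases, 2 rose and 3 fell in NCI-H929, and 4 rose and 2 fell in MM1.S. APH1B, an alternative scaffold subunit, rose from 8.0 and 7.41 to 35.4 and 36.1 in NCI-H929 (2.14) and from 0.901 and 1.42 to 4.84 and 5.35 in MM1.S (1.77). PSEN2, a catalytic subunit, fell in both lines. ADAM10, a sheddase of many surface proteins, was called lower in both lines, from a mean of 542 to 389 in MM1.S and from 231 to 208 in NCI-H929, but the NCI-H929 difference of -0.15 became 0.07 with equal totals and 0.10 under quantile normalization. The list's median log2 difference was 0.039 in NCI-H929 and 0.21 in MM1.S.

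The 22 genes of syndecans and heparan sulfate synthesis, the sugar chains that SDC1 carries, had 8 higher and 4 lower of 19 tested in NCI-H929, and 6 higher and 11 lower of 21 tested in MM1.S, with medians of -0.01 and -0.37. SULF2, an extracellular sulfatase that trims heparan sulfate, fell alike in both lines, from a mean of 498 to 144 (log2 difference -1.79) and from 481 to 138 (-1.80). XYLT1, which starts the chain on the core protein, fell by 1.49 and 1.61 on the log2 scale, and HS6ST1, a sulfotransferase, went from a mean of 80.7 to 14.6 in MM1.S. Other synthesis genes, EXT1 (0.43 and 1.11), EXT2 (0.65 and 0.21) and EXTL3 (0.82 and 0.63), were called higher in NCI-H929 and MM1.S. So were HS2ST1 (0.72 and 0.99) and NDST2 (0.71 and 0.78), while B4GALT7 was called lower in both (-0.37 and -0.55). SDCBP (syntenin), which binds syndecan tails, rose in NCI-H929 from 82.6 to 153.

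Of the 24 other surface antigens of myeloma or plasma cells, 6 rose and 16 fell of 22 tested in NCI-H929, and 6 rose and 13 fell of 21 tested in MM1.S. Their median log2 differences were -1.14 and -1.21. SLAMF7, the target of elotuzumab, fell from 391 and 396 to 13.1 and 13.6 in NCI-H929 (log2 difference -4.83) and from 708 and 736 to 167 and 160 in MM1.S (-2.14). CD48, a SLAM family ligand, fell from a mean of 581 to 8.35 in NCI-H929 (-6.04). The integrin subunit ITGB7 fell from 4121 to 918 in NCI-H929 and from 8818 to 1246 in MM1.S, and the chemokine receptor CCR1 fell by 2.50 on the log2 scale in MM1.S. Plasma cell identity genes moved with them, with 5 of 6 lower and XBP1 higher in both lines. On the log2 scale IRF4 had differences of -2.73 in NCI-H929 and -0.29 in MM1.S, POU2AF1 of -2.06 and -2.27, and MZB1 of -1.24 and -3.03. The part of these factors in the antigen values was not tested.

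**Figure D5:**
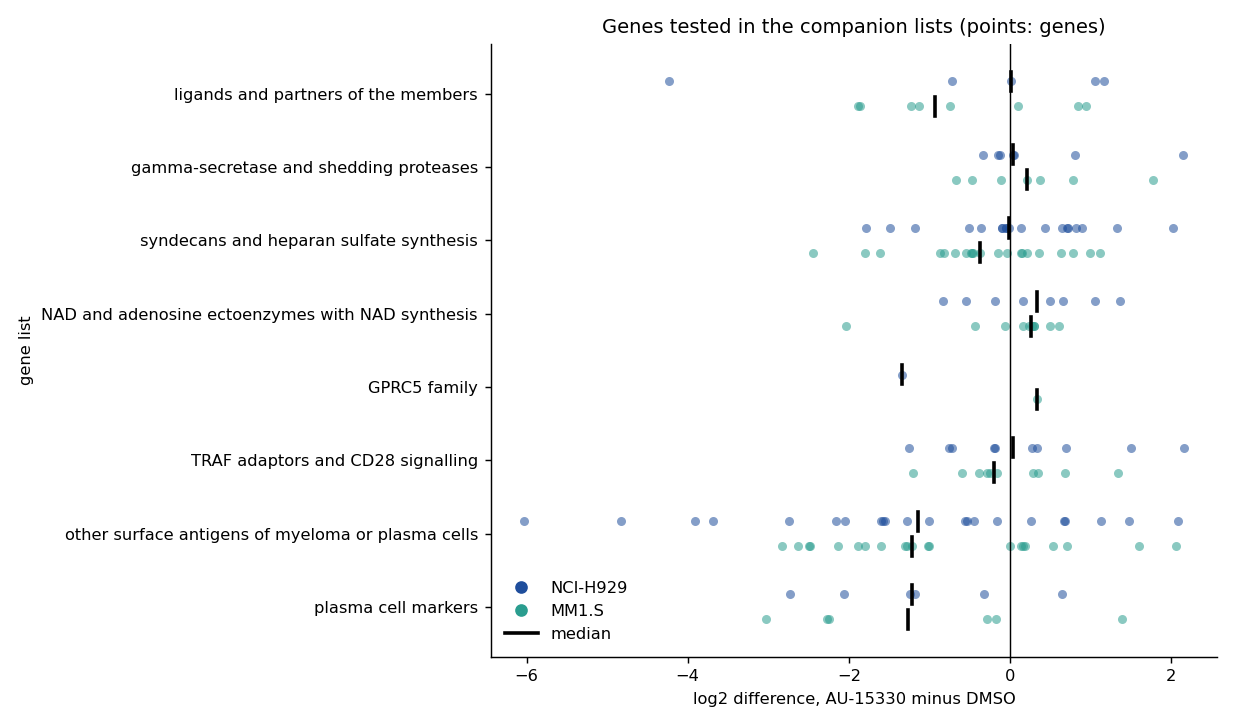
Log2 difference (AU-15330 minus DMSO) of each tested gene in 8 companion lists, with NCI-H929 in blue and MM1.S in green and black bars at list medians. The medians of the other surface antigens, -1.14 and -1.21, and of plasma cell markers, -1.21 and -1.27, lie left of 0, while the gamma-secretase list spreads on both sides, with medians of 0.039 and 0.21.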

How the data were processed

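RNA-seq was available for 16 libraries. Per the study's methods and the submitters' processing notes, the authors removed adapters, ran kallisto against hg38 on the paired reads, and analysed counts with edgeR and limma. The deposited values are a signal per gene that the authors scaled by library. Their file calls them CPM, but totals were not 1 M, so trimmed-mean scaling is inferred and not stated, and this differs from the CPM the design assumed. Of low values (up to 20 steps), 75.1% to 80.2% were whole multiples within 0.1 of a step, so whole reads were not recovered and no count model was the main test. The sources used here do not give the strand setting, the annotation release or how transcripts were summed. All value columns were mapped to samples (0 unmapped).

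Each line was fitted with the limma-trend method of limma 3.58.1 in R 4.3.3, two-sided, on log2(value + 0.5), for genes with a mean of at least 1, with Benjamini-Hochberg adjustment over all tested genes and a threshold of 0.05. Fold changes on this scale understate low genes. Differences between lines were contrasts in one fit. The procedure was also run on simulated whole counts with a single fixed dispersion. The deposited values are not whole reads and their spread varies between groups, so that run gives no error rate for these tests. Coordinates and lengths are from GENCODE release 44, and 35444 of 35606 identifiers matched. The members and the 12 companion lists (119 genes) were chosen with earlier results of these data known. All 9 members were named. Of each list, up to 3 called genes per myeloma line with the smallest adjusted p were named; values of other listed genes, such as CD3D, PSEN2 or an overlapping gene, were chosen after they were seen. For nearest genes, 3 per member were taken. Figures were drawn with matplotlib 3.10.9. Alternatives were 2 pseudocounts, 2 filters, 3 rescalings, a joint fit of all libraries, omission of the variance trend, a replicate block, limma-voom on rebuilt counts, and leaving out each library. Some genes of the companion and marker lists enter the counts and sums but are not reported here by name.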

Additional observations from a re-analysis of the deposited data

Results flagged for a closer look

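The following effects of AU-15330 differed between groups of lines by the test of the difference itself in limma. Between the myeloma lines (NCI-H929 minus MM1.S, log2 scale) these were CD38 (-0.48), SDC1 (-0.99), TNFRSF17 (-1.43), GPRC5D (-0.73) and CD28 (-0.87), with the larger fall in NCI-H929, and CD47 (0.53), which was higher after treatment in NCI-H929 and lower in MM1.S. RNA selection differed between those lines too and cannot be told apart from the line. Between the myeloma and the lung lines these were SDC1 (-1.02), with the larger fall in myeloma, and NCSTN (0.63), with the rise in myeloma. Groups held 2 libraries, so no library could be examined as an outlier within its group.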

How the results depend on the processing

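The 5 falls in NCI-H929 and those of CD38, SDC1, GPRC5D, TNFRSF13B and CD28 in MM1.S, with the rise of NCSTN in both, kept direction and call under every alternative. Scaling to equal totals raised the median log2 difference of all genes from 0.036 to 0.25 in NCI-H929 and from -0.031 to 0.19 in MM1.S, and lowered the share of calls that were lower from 49.5% to 37.3% and from 54.3% to 40.0%. It left 5 members lower in MM1.S, as did quantile normalization and one fit of all libraries, with TNFRSF17 in MM1.S at 0.033 with equal totals. ADAM10 in NCI-H929 became 0.10 under quantile normalization and 0.074 with equal totals, and NCSTN in NCI-H526 became 0.0015 under median-ratio rescaling and 0.029 with equal totals. Members higher in NCI-H929 numbered 1 in one fit of all libraries, and members higher in NCI-H526 numbered 0 with no filter, in one fit or without the variance trend. In NCI-H1048, members higher numbered 1 in one fit of all libraries, genes higher 1109 with no filter, and CD47 was 0.0026 under median-ratio rescaling and 0.0078 under quantile normalization. Leaving out each library in NCI-H1048 gave 1 to 2 members lower, 1337 to 3257 genes lower, 0 to 1 members higher, 923 to 3234 genes higher (2488 and 2320 with all libraries, both counts lowest without DMSO replicate 1, 1636 and 1036 without DMSO replicate 2, and highest without AU-15330 replicate 2), CD38 at -0.056 to 0.29 and CD47 at -0.31 to 0.30. The difference of NCSTN between the myeloma lines was called under quantile normalization (0.30) and without NCI-H929 DMSO replicate 2 (0.22), and that of CD47 between myeloma and lung lines without either lung AU-15330 library labelled replicate 1 (-0.38 and -0.40). Causes were not tested. Of the 7 members with nearest genes, all but GPRC5D kept 2 or 3 of 3 with a pseudocount of 1.

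Deviations of libraries with the same replicate number correlated at 0.00088, -0.33, 0.041 and 0.31 in NCI-H929, MM1.S, NCI-H526 and NCI-H1048, so the numbers were not taken as pairs. With the replicate block, members lower numbered 5 in NCI-H929 and 7 in MM1.S, and genes lower 4947 and 5423. No call on a member changed. A crossed block in MM1.S, chosen after seeing the data, gave 7 members and 5721 genes lower and 1 member and 4814 genes higher. Depth limits the genes near 3 reads, above all CD27.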

Other observations

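Enzymes that handle NAD and adenosine, the substrates and products around CD38, were not described above. Of 8 tested in NCI-H929, 4 rose and 2 fell, and of 10 tested in MM1.S, 4 rose and 2 fell, with median log2 differences of 0.33 and 0.25. Over all tested genes 38.4% were called higher and 37.6% lower in NCI-H929, and 33.9% and 40.2% in MM1.S. ADA, adenosine deaminase, fell from 104 and 115 to 64.1 and 58.7 in NCI-H929 (-0.83, adjusted p = 3.12e-08) and from 96.8 and 98.8 to 23.7 and 23.0 in MM1.S (-2.04, adjusted p = 9.64e-10). NT5E (CD73), which makes adenosine outside the cell, rose from 7.81 and 6.88 to 20.3 and 19.1 in NCI-H929 (1.36) and from 10.3 and 10.2 to 16.4 and 15.6 in MM1.S (0.61). NAMPT, the rate-limiting enzyme of NAD salvage, fell in NCI-H929 from 227 to 155 (-0.55), and ENPP1, an ectoenzyme, was called lower in MM1.S, from 23.6 to 17.4 (-0.43), a call lost with equal totals (-0.20).

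Adaptors below the receptors were called in both directions, as were genes at large. Of 10 TRAF and CD28 signalling genes tested in each line, 5 rose and 5 fell in NCI-H929, and 4 rose and 3 fell in MM1.S, with median log2 differences of 0.042 and -0.21. The shares of all genes called, given above for the NAD enzymes, stand beside these counts. TRAF1 rose from 3.51 and 5.0 to 21.0 and 20.1 in NCI-H929 (2.16) and from 9.48 and 8.67 to 21.9 and 25.5 in MM1.S (1.33). PIK3R1, a regulatory subunit of PI3-kinase, rose in both lines (1.5 and 0.68), and SIVA1, which binds the CD27 tail, fell in both (-1.25 and -1.21).

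Relatives of GPRC5D were low in the myeloma lines, where 1 of 3 was tested in each. GPRC5B was called lower in NCI-H929, from a mean of 2.22 to 0.553 (-1.34, adjusted p = 0.00247). There it passed the filter only through its DMSO libraries, with an AU-15330 mean under 1 scaled unit. In the lung lines GPRC5B fell from 167 and 164 to 63.6 and 58.0 in NCI-H1048 (-1.44, adjusted p = 6.65e-10) and from 16.1 and 16.4 to 6.68 and 6.77 in NCI-H526 (-1.21, adjusted p = 1.11e-06).

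Some markers of other cell types also moved in the myeloma lines. CD79B, a subunit of the B cell receptor, fell from a mean of 45.3 to 21.2 in NCI-H929 and from 15.3 to 2.11 in MM1.S, whereas CR2, a complement receptor of mature B cells, rose in MM1.S from 33.3 and 35.8 to 89.3 and 88.7. CD68, a lysosomal protein used as a myeloid marker, fell in MM1.S from 8.81 and 10.1 to 1.63 and 1.49. LYZ, the myeloid enzyme lysozyme, was called higher in NCI-H929 from a mean of 0.309 to 1.75 (1.5, adjusted p = 0.00173). There LYZ passed the filter only through its AU-15330 libraries, with a DMSO mean under 1 scaled unit, so the call is no independent support for a rise. Of 3 epithelial and tuft cell markers tested in each myeloma line, 1 was called higher and 1 lower in NCI-H929, and 2 higher in MM1.S. The shares of all genes called are given above. AVIL, an actin regulator of tuft cells, rose in MM1.S from 10.7 and 10.8 to 29.2 and 27.6. In NCI-H929 AVIL was called higher (0.97), but passed the filter only through its AU-15330 libraries, and the call was lost under quantile normalization (0.47). KRT8 was called higher in MM1.S (0.53), a call lost with no filter. KRT18, an epithelial keratin, fell in NCI-H929 from a mean of 12.6 to 6.77 (-0.86, adjusted p = 0.000308).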
